A study of Sus scrofa with 2 samples.

Results

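Expression of 10 genes of the Hippo pathway was measured in PSI, a line of smooth muscle cells from pig ileum: the kinases LATS1 and LATS2, the coactivators YAP1 and WWTR1, the DNA-binding factors TEAD1, TEAD2, TEAD3 and TEAD4, and the target genes AMOTL2 and ANKRD1. The genes were chosen by name for their known roles, and each matched exactly 1 of the 25880 gene identifiers in the deposited table. Earlier results of these data were known when they were chosen, so their levels give no independent support. RNA-seq was done on 2 libraries of the PSI clone, the only group, taken from cells grown in DMEM with 10% FBS and 1% antibiotics. The labels name no treatment, and no tissue, treated cells or second clone were analysed here, so levels are described and conditions are not compared. PSI is a single clone, and the labels do not say whether the libraries came from separate cultures, so an SD below describes how far these 2 libraries lie apart, and that distance may be purely technical.

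The Hippo pathway is a kinase cascade that restrains a pair of related transcriptional coactivators, YAP (gene YAP1) and TAZ (gene WWTR1). The kinases STK3 and STK4, with the scaffold SAV1, activate LATS1 and LATS2 together with MOB1 proteins, and LATS kinases phosphorylate YAP and TAZ, which are then held in the cytoplasm or degraded. Unphosphorylated YAP and TAZ enter the nucleus and bind TEAD factors on the regulatory DNA of genes such as CCN1, CCN2, ANKRD1 and AMOTL2. Adhesion to a stiff surface, spreading and actin tension are known to favour nuclear YAP and TAZ, and in muscle, TEAD factors bind the MCAT elements of contractile genes. Control of YAP and TAZ is largely by phosphorylation, location and stability of the proteins, none of which was measured here.

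The libraries gave nearly the same values and matched their label only in part. Expression is in FPKM, fragments scaled to gene length and to the library total, and these totals were recovered as 35176565 in replicate 1 and 32217729 in replicate 2. In a 1 kb gene, each read then adds 0.0284 and 0.0310 FPKM, respectively. Of 10 smooth muscle markers measured, 8 reached 1 FPKM in both libraries. ACTA2 was highest at 693 ± 11.8 FPKM (SD, n = 2), followed by ACTG2 and CNN1, with means of 479 and 254. The lowest of the 8 were TAGLN and DES, with means of 5.46 and 2.90 FPKM. MYH11 had 0.461 and 0.522 FPKM, and MYOCD was listed at 0 in both libraries. Of 26 measured markers of fibroblasts, interstitial cells of Cajal, epithelium, endothelium, leukocytes, enteric neurons and glia, and mesothelium, 7 reached 1 FPKM and 8 were listed at 0, and their summed level was 29.9 and 30.0 FPKM against 1661 and 1624 for the smooth muscle markers. The highest of the 26 was ETV1, at 14.03 and 14.5 FPKM. The epithelial CDH1, the endothelial CDH5 and the leukocyte gene PTPRC were at 0. However, the endothelial PECAM1 and the leukocyte gene CD68 reached 1 FPKM in both libraries, with means of 1.76 and 1.24. The fibroblast genes PDGFRA, DCN and LUM also did so, with means from 1.63 to 2.24, as did the mesothelial WT1 (mean 4.75). Zeros and low values in this table, those of MYH11 and MYOCD included, need care. RPL29, a ribosomal protein gene that every cell uses, was also listed at 0, the glycolytic gene TPI1 had 0.424 and 0.224 FPKM, and the actin-binding PFN1 and the myosin light chain gene MYL6 had means of 6.37 and 5.95. Fewer cells expressing a gene and less RNA per cell cannot be told apart in these bulk libraries.

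All 10 Hippo genes were expressed. Each reached 1 FPKM in both libraries, as did 40.9% of all identifiers and 61.5% of those with a gene symbol. Their levels spanned 16.3 ± 0.154-fold (SD, n = 2) from LATS1, the lowest, to AMOTL2, the highest. The median of the 10 was 4.87 on the log2(FPKM + 1) scale, beside 0.22 over all identifiers, 2.29 over those with a symbol and 3.58 over those detected at that threshold. On the linear scale these medians were 28.3, 0.167, 3.90 and 10.9 FPKM. Of the 10 genes, 9 lay above the last of these, as did 4662 of the 14857 identifiers with a symbol, and LATS1 lay below it.

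**Figure D1:**
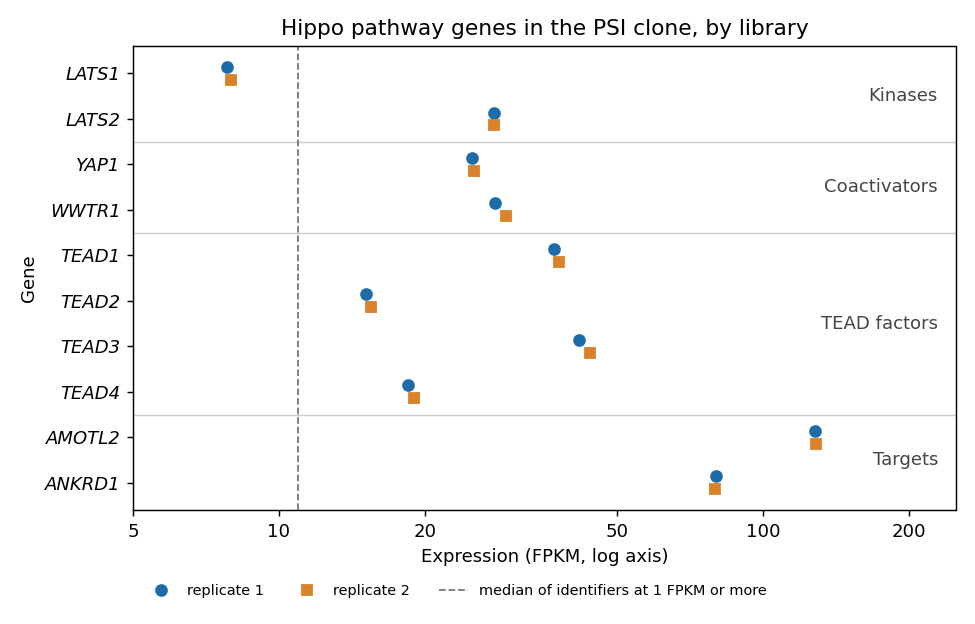
Expression of the 10 genes in each library, in FPKM on a log axis, grouped by role. Circles are replicate 1 and squares replicate 2, and the dashed line is the median of identifiers at 1 FPKM or more in both libraries (10.9 FPKM). LATS1 alone lies left of the line, and the targets AMOTL2 and ANKRD1 lie farthest right.

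The LATS kinases phosphorylate YAP and TAZ directly. LATS1 had 7.82 FPKM in replicate 1 and 7.95 in replicate 2, a mean of 7.89 ± 0.0884 FPKM (SD, n = 2) from 2058 and 1915 recovered reads. LATS2, which is also a target gene of YAP and TEAD and so closes a feedback loop, had 27.8 FPKM in both libraries, a mean of 27.8 ± 0.0129 from 3919 and 3587 reads. LATS2 was the more abundant of the kinases in each library, by 3.55-fold and 3.496-fold, and it held 77.9% ± 0.201 of their summed FPKM. The kinases thus stood on opposite sides of the median of identifiers at 1 FPKM or more: 39.2% of these lay below LATS1 and 77.1% below LATS2.

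The coactivators stood close together. YAP1 had 25.0 FPKM in replicate 1 and 25.3 in replicate 2, a mean of 25.1 ± 0.190 FPKM (SD, n = 2) from 4686 and 4338 reads. WWTR1 had 28.0 and 29.5 FPKM, a mean of 28.8 ± 1.08. WWTR1 was higher than YAP1 in both libraries, by 1.12-fold and 1.17-fold, and the ranges of the genes did not overlap. YAP1 accounted for 46.7% ± 0.749 of the summed coactivator FPKM. The level of WWTR1 has a limit that YAP1 lacks: the shortest gene length that turned its values into whole reads was 388 bases, against 5327 for YAP1. Such a length is short for this gene, so either the true length and reads are a multiple of the recovered ones or the counted gene model is a fragment, which cannot be told apart here. A fragment would count reads over part of the transcript only, and its FPKM may then differ from that of the whole gene.

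The TEAD factors carry the DNA-binding domain through which YAP and TAZ reach their targets. All 4 TEAD genes were expressed above 15 FPKM. TEAD3 had 41.7 FPKM in replicate 1 and 43.8 in replicate 2 (mean 42.8 ± 1.498, SD, n = 2, from 1915 and 1843 reads). TEAD1 had 37.0 and 37.9 FPKM (mean 37.4 ± 0.576, from 5173 and 4842 reads). The shortest fitting length was 3970 bases for TEAD1 and 1305 for TEAD3, and whether the TEAD3 model is whole was not tested. TEAD4 had 18.5 and 19.0 FPKM (mean 18.7 ± 0.329, from 1620 and 1521 reads). TEAD2, the lowest, had 15.2 and 15.5 FPKM (mean 15.3 ± 0.228). Its shortest fitting length was 493 bases, with 263 and 246 reads, so the limit given for WWTR1 holds for its reads and, if the model is a fragment, for its FPKM, its place in the order and the shares and ratios below.

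The TEAD genes thus fell into a higher pair, TEAD3 and TEAD1, and a lower pair, TEAD4 and TEAD2, with no overlap between the libraries' values of any of them. TEAD3 held 37.4% ± 0.450 of the summed TEAD FPKM, TEAD1 32.8% ± 0.251, TEAD4 16.4% ± 0.0898 and TEAD2 13.4% ± 0.109 (SD, n = 2). TEAD3 exceeded TEAD2 by 2.79 ± 0.0562-fold. The summed level of the 4 TEAD genes was 112.4 and 116.2 FPKM, 2.12 ± 0.00126 times the summed level of YAP1 and WWTR1, 53.0 and 54.8 FPKM.

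**Figure D2:**
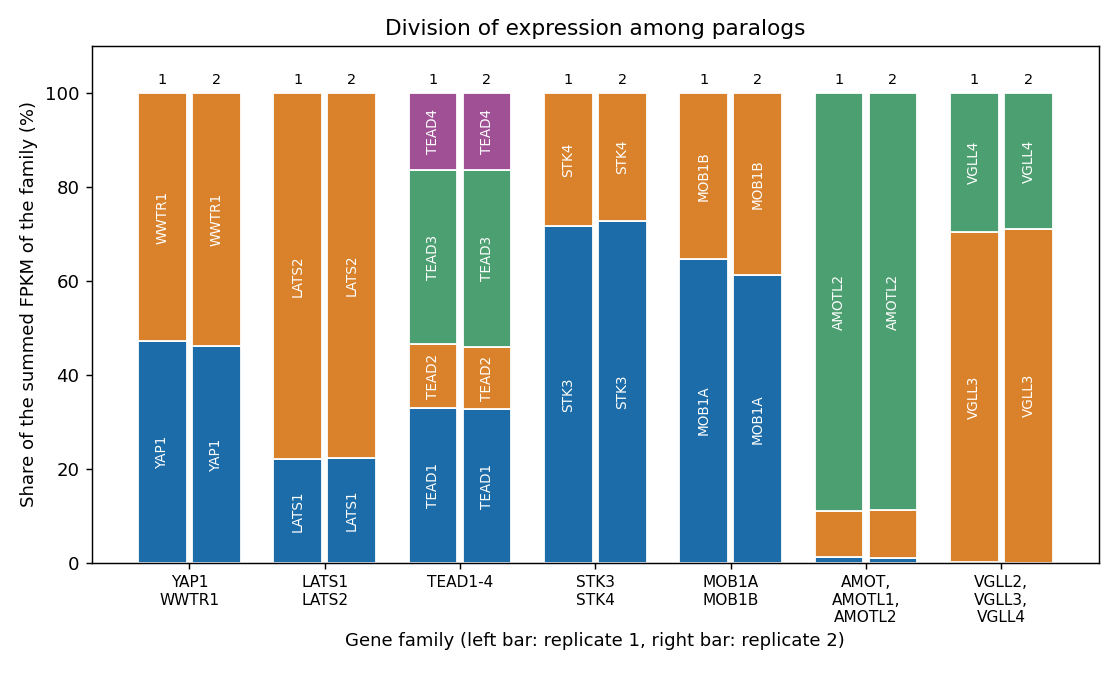
Share of each paralog in the summed FPKM of its family, in percent, for replicate 1 (left bar of each pair) and replicate 2 (right bar). AMOT, at 1.07% of the angiomotin genes, and VGLL2, with at most 0.0494% of the VGLL genes, are too thin to label, and AMOTL1, the orange band, holds 10.03%. YAP1 and WWTR1 divide their family nearly evenly, whereas LATS2 and AMOTL2 take most of theirs.

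AMOTL2 and ANKRD1, targets of YAP and TEAD, were the most abundant of the 10 genes, while LATS2, also a target, lay below WWTR1, TEAD1 and TEAD3. AMOTL2 encodes a junctional protein of the angiomotin family that binds YAP and holds it outside the nucleus, and is itself induced by YAP and TEAD. It had 128 FPKM in replicate 1 and 129 in replicate 2, a mean of 128 ± 0.224 FPKM (SD, n = 2) from 20697 and 19003 reads. ANKRD1, an ankyrin repeat protein of muscle that is widely used as a readout of YAP activity, had 79.9 and 79.5 FPKM, a mean of 79.7 ± 0.296 from 8784 and 8003 reads. AMOTL2 ranked 401 and ANKRD1 704 among all identifiers by mean FPKM, and the next of the 10, TEAD3, ranked 1493. ANKRD1 stood 3.17 ± 0.0358-fold above YAP1.

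From lowest to highest mean, the order was LATS1, TEAD2, TEAD4, YAP1, LATS2, WWTR1, TEAD1, TEAD3, ANKRD1 and AMOTL2. None of the 9 pairs of neighbours in this order overlapped between libraries. For 8 of the 9, the gap between means was over 2 times the combined SD. The exception was LATS2 and WWTR1, whose means differed by 0.959 FPKM against a combined SD of 1.08. Their order is thus within the spread of the libraries. These SDs come from 2 libraries and cover no error in gene length or read assignment. They do not settle the order of different genes, and the limits given for WWTR1 and TEAD2 hold here.

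The level of a gene in 2 libraries of a single clone carries little pattern. The genes nearest to YAP1, by distance in log2(FPKM + 1) over the 2 libraries, were NSMF, WDR6 and EHBP1L1, each within 0.00941. The nearest to WWTR1 were SLC10A3, MTX2 and SURF4, within 0.0142. In all, 75 genes with a symbol lay within 0.05 of YAP1 and 49 within 0.05 of WWTR1.

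The duplicate libraries did not separate any of the 10 genes. A two-sided exact binomial test of the recovered reads against the library totals, with Benjamini-Hochberg adjustment over 16327 identifiers, called 182 identifiers, 1.11% of those tested, and 0 of the 10. The smallest adjusted p among the 10 was 0.677, for TEAD3, which was 5.08% higher in replicate 2 (95% exact interval of the ratio, 0.985 to 1.12). At an unadjusted p under 0.05 the count was also 0 of 10, where 10.2% of all identifiers passed. WWTR1 was 5.47% higher in replicate 2, with an interval of 0.912 to 1.22. That interval uses the fewest reads that fit, and is too wide if the true reads are a multiple. In all, 8 of the 10 were higher in replicate 2, as were 52.4% of identifiers whose mean reached 1 FPKM. The reads carried no molecular identifiers, so the intervals cover counting error only. Over all identifiers tested, the mean squared deviation between libraries was 1.75 times that of binomial sampling. The libraries thus spread more than the test allows for. The coefficient of variation between libraries ran from 0.0465% for LATS2 to 3.76% for WWTR1. Its median was 1.30%, beside 2.62% over identifiers with a mean of 1 FPKM or more. These sets were not matched for level, and 9 of the 10 genes lay above the median of identifiers at 1 FPKM or more.

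**Figure D3:**
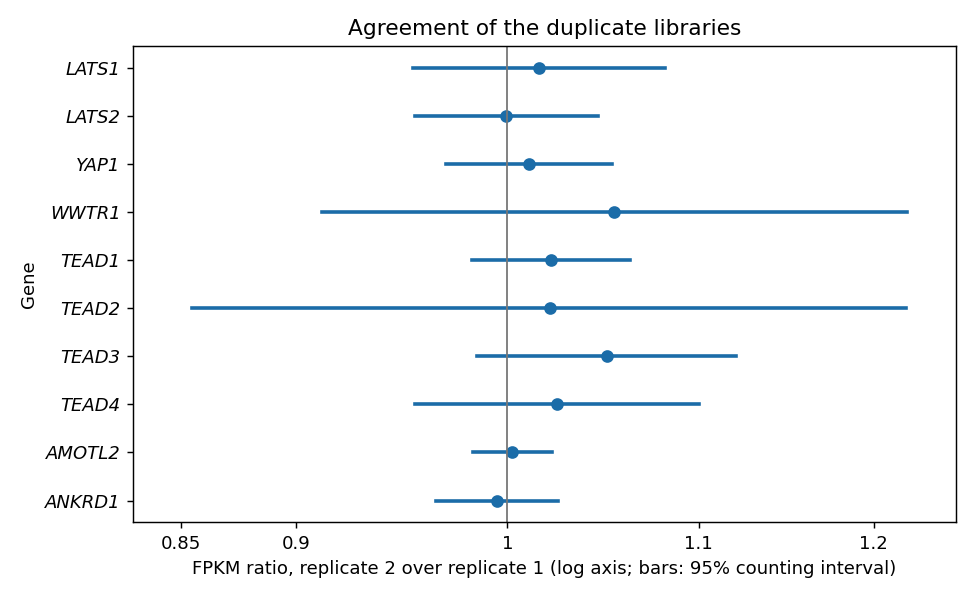
Ratio of FPKM in replicate 2 to replicate 1 for the 10 genes on a log axis, with 95% exact binomial intervals from the recovered reads as bars. All 10 bars cross 1, and the bars of WWTR1 and TEAD2 are widest because the fewest reads were recovered for them. Those reads are lower bounds, so both bars are too wide if the true reads are a multiple.

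The rest of the pathway was described from 3 further lists of genes named by function. A listed gene counted as measured if its symbol matched an identifier, so others may be present without a symbol. The first held the kinases, scaffolds and upstream inputs, LATS1 and LATS2 included. Of its 25 genes, all measured, 24 reached 1 FPKM in both libraries, beside the 61.5% of identifiers with a symbol, and the median was 3.97 on the log2(FPKM + 1) scale, beside 2.29 over identifiers with a symbol. LATS2 was 8th and LATS1 19th by mean FPKM. The highest were MAP4K4 (101.7 and 100.6 FPKM), a kinase that can activate LATS in parallel to STK3 and STK4, FRMD6 (70.1 and 70.9), a FERM-domain protein, MOB1A (42.1 and 40.3), an activating subunit of LATS kinases, and FAT1 (37.3 and 38.3), a giant cadherin.

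Among the core activators of LATS, STK3 had 21.5 and 22.1 FPKM and STK4 8.54 and 8.28. STK3 thus made up 72.2% ± 0.791 of their sum (SD, n = 2). The shortest fitting length was 1899 bases for STK3 and 1405 for STK4, and whether these models are whole was not tested. SAV1, the scaffold of STK3 and STK4, was the lowest detected gene of the list, at 4.09 and 3.76 FPKM from 360 and 303 reads. NF2, which encodes the membrane scaffold merlin, had 37.7 and 37.2 FPKM. MOB1B had 22.9 and 25.5 FPKM, beside the 42.1 and 40.3 of MOB1A. These genes are related in sequence, so that reads of either could be lost or assigned to the other. FAT4 (6.63 and 6.74) and TNIK (7.27 and 7.22) were the lowest above SAV1. WWC1, which encodes the scaffold KIBRA, was listed at 0 in both libraries, while its paralog WWC2 had 7.47 and 7.30 FPKM.

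The second list held inhibitors of YAP, TAZ and TEAD and proteins of their turnover. Of 27 genes, 23 were measured and 22 reached 1 FPKM in both libraries, beside 61.5% of identifiers with a symbol, with a median of 4.76 on the log2(FPKM + 1) scale. The 14-3-3 genes YWHAQ (208 and 206 FPKM), YWHAZ (180 and 176) and YWHAB (107 and 108), whose products bind phosphorylated YAP and many other proteins, took 3 of the 4 highest places, and AMOTL2 was 3rd. AMOTL2 also dominated its own family, at 88.9% ± 0.0871 of the summed angiomotin FPKM (SD, n = 2). Its paralog AMOTL1 had 14.3 and 14.6 FPKM. AMOT, the founding member, had 1.58 and 1.52 FPKM from 309 and 273 reads, so that AMOTL2 was 82.99 ± 2.26-fold above it. The shortest fitting length was 1763 bases for AMOTL1 and 4588 for AMOTL2, and whether the AMOTL1 model is whole was not tested.

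The VGLL proteins bind TEAD in competition with YAP and TAZ. VGLL3 had 31.2 and 32.4 FPKM, VGLL4, a TEAD repressor, had 13.2 and 13.2, and VGLL2 had 0.0220 in replicate 1, from 1 read, and 0 in replicate 2. VGLL3 was 2.41 ± 0.0649-fold above VGLL4 (SD, n = 2), and the measured VGLL genes summed to 0.394 ± 0.00262 times the summed TEAD level. VGLL1 was not analysed here. BTRC, an F-box protein of YAP and TAZ degradation, had 8.42 and 7.97 FPKM, and its paralog FBXW11 had 27.1 and 26.7.

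The third list was a published score of 22 genes used as readouts of YAP and TAZ in cancers, of which 20 were measured. In the PSI clone 19 of the 20 reached 1 FPKM in both libraries, beside 61.5% of identifiers with a symbol, with a median of 5.34 on the log2(FPKM + 1) scale, or 5.04 over the 17 that are not among the 10 genes. On the linear scale, 16 of the 20 lay above the 10.9 FPKM median of identifiers at 1 FPKM or more, as did 4662 of the 14857 identifiers with a symbol. The secreted matricellular proteins CCN2 (293 and 296 FPKM) and CCN1 (271 and 270), the clotting initiator F3 (279 and 272) and the receptor tyrosine kinase AXL (145 and 149) were highest. AMOTL2 came 5th and ANKRD1 6th, ahead of TGFB2 (73.5 and 76.6), a ligand of the TGF-beta receptors. LATS2 was 12th of the 20.

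At the other end of the target list, RBMS3, an RNA-binding protein gene, had 1.02 and 1.15 FPKM, the kinase gene NUAK2 4.36 and 4.25 and ASAP1, a regulator of Arf GTPases, 7.61 and 7.54. FOXF2, a forkhead factor of gut mesenchyme, was listed at 0 in both libraries. The list was therefore not uniformly high, and its members ranged from 0 to 295 FPKM in mean. These genes also respond to other inputs, such as serum and growth factor signalling, whose part in the levels was not tested.

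**Figure D4:**
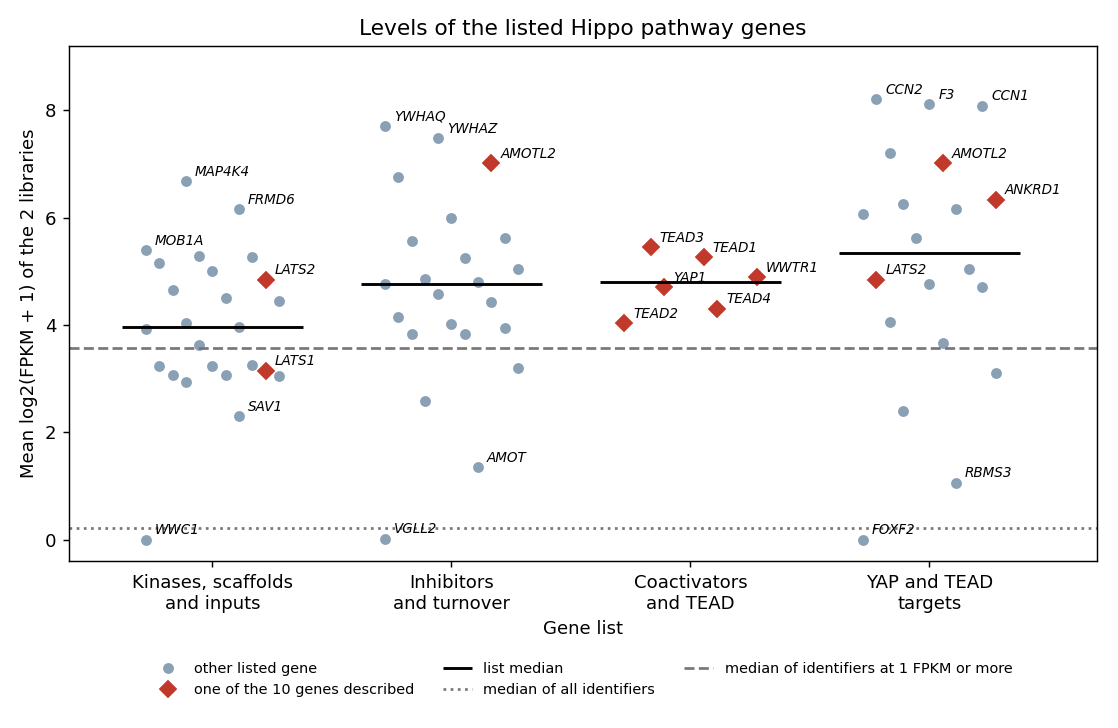
Mean log2(FPKM + 1) over the 2 libraries for each measured gene of 4 lists. Red diamonds are the 10 genes described, grey circles other listed genes and black lines list medians, and the dotted and dashed lines are the medians of all identifiers (0.22) and of identifiers at 1 FPKM or more (3.58). AMOTL2 and LATS2 appear in 2 lists each, and WWC1, VGLL2 and FOXF2 lie at or near 0.

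Counting each gene once, the 4 lists held 77 genes, of which 71 were measured and 68 reached 1 FPKM in both libraries, beside 61.5% of identifiers with a symbol. WWC1 and FOXF2, at 0 in both libraries, were not tested. Among the rest of the 71, the binomial test with Benjamini-Hochberg adjustment separated the libraries at 2, both of them outside the 10 genes. Of all identifiers tested, it called 1.11%. MOB1B was 11.02% higher in replicate 2 (exact binomial test, adjusted p = 0.0212) and PTPN14, a phosphatase that binds YAP, was 10.8% higher in replicate 2, with 24.7 and 27.4 FPKM (exact binomial test, adjusted p = 0.00991). The test compares these libraries and no condition, and it allows for counting error only. The libraries spread more than that over all identifiers, so both adjusted p-values may be too small.

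RefSeq gene models of the Sscrofa11.1 assembly put the 10 genes on 9 chromosomes, all as protein-coding genes, and only AMOTL2 and WWTR1 share one. YAP1 lies on chromosome 9 from 32811629 to 32924926, WWTR1 on chromosome 13 from 89742980 to 89889547 and AMOTL2 on chromosome 13 from 75490936 to 75507360. LATS1 lies on chromosome 1 from 16274955 to 16320980 and LATS2 on chromosome 11 from 1225523 to 1265970. TEAD1 lies on chromosome 2 from 46396490 to 46670619, TEAD2 on chromosome 6 from 54448183 to 54462325, TEAD3 on chromosome 7 from 31337890 to 31351452 and TEAD4 on chromosome 5 from 67130392 to 67167579. ANKRD1 lies on chromosome 14 from 102603777 to 102612857. Identifiers were joined to these positions by symbol only, and each FPKM value belongs to a gene and not to an exon.

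Overlapping RefSeq models touch 6 of the 10 genes. ANKRD1 shares 2270 bases with RPP30, a ribonuclease P subunit gene at 12.8 and 12.8 FPKM, which is below the 79.9 and 79.5 of ANKRD1. TEAD2 shares 13 bases with CD37, at 0.104 and 0.162 FPKM. TEAD1 and YAP1 overlap long noncoding RNA models, and pseudogene models lie inside WWTR1 and TEAD3. The strand setting of the counting is not known here, so reads of overlapping genes could have been dropped or assigned to the wrong gene for these 6. No RefSeq model overlaps LATS1, LATS2, TEAD4 or AMOTL2.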

How the data were processed

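RNA-seq was done on 2 libraries of 1 clone, and no condition was compared. Per the labels' protocols, total RNA was taken with TRIzol and made into NEBNext Ultra libraries. The aligner TopHat2 2.0.12, the counter HTSeq 0.6.1 and the build Sscrofa11.1 are listed in the submitters' processing notes. The annotation release, the strand setting and any filters were not given in the sources used here. FPKM values were deposited by the authors, 1 column per library.

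Because whole reads lie behind each value, library totals were recovered from the steps of the values. Each gene received the shortest length from 50 to 30000 bases that gave whole reads, with a tolerance of 1.2 times the digits' rounding, which succeeded for 100% of 16327 identifiers above 0. Recovered reads are lower bounds, since multiples also fit, and summed to 90.8% of both totals. The recovery and the exact binomial test were tested on simulated data. Unchanged genes there differed by counting error only, so that run could not show the effect of wider spread. Symbols came from a gene name table that matched 14857 of 25880 identifiers. Detection required 1 FPKM in each library, and log2 levels used a pseudocount of 1. Adjusted p-values are Benjamini-Hochberg values (scipy 1.17.1) over all identifiers above 0.

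All 10 genes were named, and from each list the highest 4, the lowest 4 and members of central role were eligible for naming. The 10 genes and the lists were chosen with earlier results of these data known, so they give no independent support. The library differences of MOB1B and PTPN14, and overlapping genes, were picked out with values in view. Alternatives changed the detection level, pseudocount, filter, scaling and recovered reads, and left out each library. Protein and promoter sequences were not used here. The values of 1 listed gene are not reported here.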

Additional observations from a re-analysis of the deposited data

How the results depend on the processing

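The counts of detected genes stayed within 1.5 times under each alternative run (0.5 or 5 FPKM, TPM, or either library alone): all 10 Hippo genes passed each, and at 5 FPKM the kinase, inhibitor and target lists kept 23, 20 and 17 genes. The median level of the 10 genes, 4.87, was 4.83 with a pseudocount of 0.1 and 6.28 in TPM, which multiplies every value by 2.72 and leaves the order unchanged. The LATS2 share was 65.4% from recovered reads not divided by length, since the recovered length was 7478 bases for LATS1 and 4007 for LATS2. As for all genes, these are the shortest lengths that fit, so that share holds only if they are the true ones. The alternative was not run for YAP1 and TEAD shares, because the recovered lengths of WWTR1 and TEAD2 are short and their reads may be a multiple. The 184 values recomputed from a single library each moved by under 1 SD or not at all, as 2 libraries must by construction. The binomial test called 0 of the 10 genes under each alternative scaling, filter and read multiple, the last chosen after seeing the data, under which 5.52% of identifiers were called. No paired analysis was possible because there is only 1 group. VGLL2 rests on 1 read. WWC1 and FOXF2 are listed at 0, for which the cause was not tested.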
